A study of Caenorhabditis elegans with 6 samples.

Results

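Astacins are secreted zinc metalloproteases, and the nematode Caenorhabditis elegans carries an unusually large family of their genes, most of them named nas for nematode astacin. The genes described here were all rows of the deposited expression table whose gene name is nas followed by a number, without regard to their values. There were 36 such genes among 46950 rows. Of these, 10 were measured, which means that they reached at least 1 FPKM (fragments per kilobase of gene length, scaled to the number of reads in the library) in at least 3 of the 6 libraries. A further 3 astacin genes carry other names and were described separately. They are hch-1 and toh-1, which the deposited table describes as zinc metalloproteinases nas-34 and nas-26, and dpy-31.

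The 6 libraries were made from polyadenylated RNA of whole worms, 3 from worms treated with terahertz radiation (THz) and 3 from control worms. This radiation has frequencies above those of microwaves and below those of infrared light, here 0.26 THz by the title of the series. The labels leave unstated the strain, age and stage of the worms, the duration, power and temperature of the exposure, and what handling the control worms shared with the treated ones. They also leave unstated whether replicate libraries came from separate cultures, so the p-values may reflect no more than technical spread among the 6 libraries.

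Astacins are made as inactive proenzymes, and removal of the propeptide frees a catalytic domain that binds zinc. Downstream of this domain the nematode proteins carry different modules, by which the family is divided into subgroups that follow the gene numbers. Members digest proteins outside cells, among them the cuticle, the collagen-based outer coat that the worm sheds and rebuilds at each larval moult. NAS-36 and NAS-37 are needed to shed the old cuticle, DPY-31 cuts the end off a cuticle procollagen, NAS-6 and NAS-7 act in the pharynx, the feeding organ, and HCH-1 helps the larva to leave the eggshell.

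The libraries held between 19079440 and 21977418 counted reads, as recovered from the FPKM values. Among the control libraries, Control 2 and Control 3 stood farthest apart, with a Pearson correlation of log2(FPKM + 1) across genes of 0.946, against 0.989 to 0.992 among the THz libraries. Genes are not independent replicates, so this is a description. Markers of the main tissues were measured in these whole-worm libraries, with 6 of 6 hypodermal, 7 of 7 intestinal, 6 of 7 pharyngeal, 5 of 5 body wall muscle, 5 of 5 neuronal and 6 of 6 germline genes past the same filter. The yolk gene vit-2, made by adult hermaphrodites, lay between 4420 and 5810 FPKM. In whole worms, fewer cells of a type and less RNA per cell cannot be told apart.

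A handful of genes carried most of the RNA of the nas genes. The summed FPKM of the 36 genes was 54.5, 64.3 and 56.8 in the control libraries and 50.6, 57.7 and 53.8 in the THz libraries, so the groups overlapped, with the highest sum in Control 2. These sums rested on 1752 to 2355 reads per library. Together nas-11, nas-9, nas-37 and nas-20 made up 61.2% to 72.5% of the sum. They were also the 4 members with a mean of at least 5 FPKM. The highest of them, nas-11, averaged 13.3 FPKM, where the median gene measured had a mean of 15.1 FPKM. The astacin genes with other names were left out of the sum. They averaged 15.5 FPKM (hch-1), 7.73 FPKM (toh-1) and 7.36 FPKM (dpy-31), so the share given is not one of all astacin RNA.

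**Figure D1:**
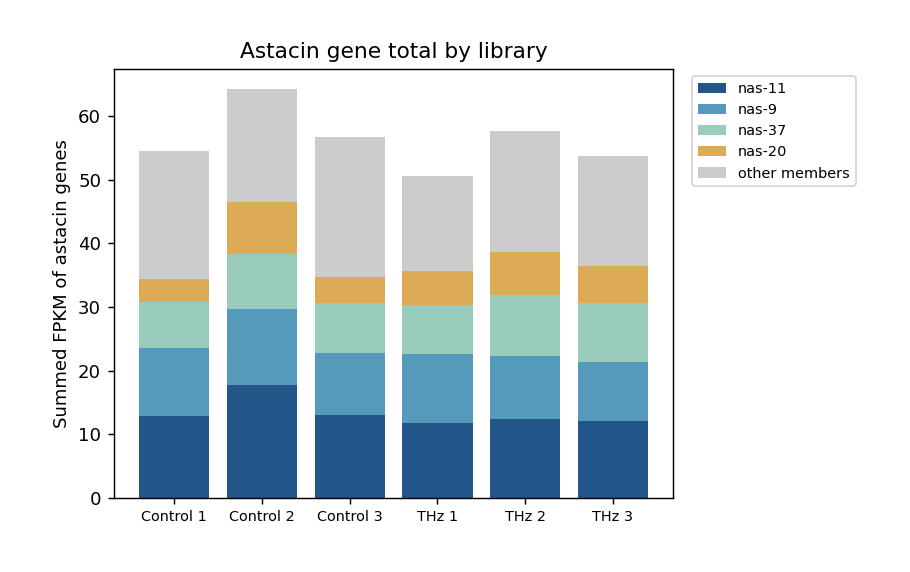
The bars give the summed FPKM of the 36 nas genes in each library. The share of nas-11, nas-9, nas-37 and nas-20 is in colour and that of all other members in grey. The sum runs from 50.6 in THz 1 to 64.3 in Control 2, and the coloured part is 61.2% to 72.5% of it.

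The remaining 26 members stayed below the filter. Of these, 3 were listed at 0 in all 6 libraries, namely nas-2, nas-16 and nas-18. With a limit of 3 reads in the library with the fewest reads, a count of 0 allows up to 0.192 FPKM for nas-2, 0.155 FPKM for nas-16 and 0.217 FPKM for nas-18, counting error only. The annotation holds a second locus named nas-2, listed in the deposited table as Y19D10A.6 with the same length of 819 bases and also at 0 in every library. How reads that match 2 loci were treated is not given in the sources used here. The other 23 had means from 0.0383 FPKM (nas-23) to 0.941 FPKM (nas-31), and 19 of them did not reach 1 FPKM in any library. For 12 of the 36 members, no library held more than 10 reads.

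**Figure D2:**
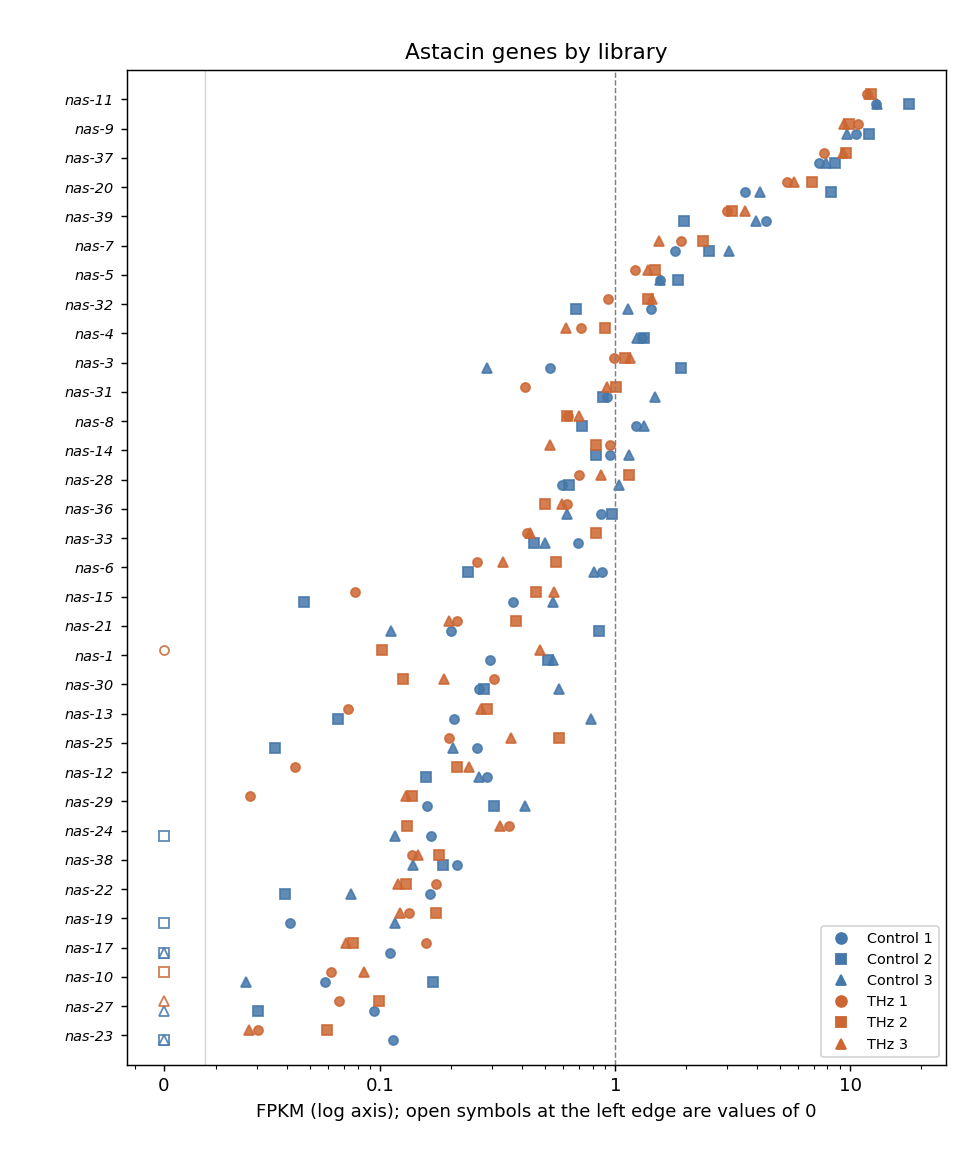
FPKM of the 33 astacin genes with a value above 0, on a log axis, 1 symbol per library (control blue, THz orange), with genes ordered by their mean, open symbols at the left edge for values of 0 and a dashed line at 1 FPKM. The colours of the groups mix for most genes, and the levels span from 0.0383 FPKM on average for nas-23 to 13.3 FPKM for nas-11.

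Positions are those of the deposited table, whose build is WBcel235 per the submitters' processing notes. The members lay on chromosomes I to V and X, with 13 on chromosome V and 8 on X. On chromosome V there were a pair of clusters. In the first, nas-16, nas-18, nas-17 and nas-19 follow each other between 11392320 and 11402690, with 666 to 2925 bases between neighbours. All 4 genes were near the floor. The highest count in the cluster was 4 reads, for nas-17 in THz 1 and for nas-19 in THz 2. In the second, nas-20, nas-21 and nas-22 lie between 11470868 and 11477951, and only 211 bases separate nas-20 from nas-21 on the opposite strand. These neighbours differed widely in level, with means of 5.67 FPKM for nas-20, 0.325 for nas-21 and 0.116 for nas-22. In the annotation, exons of 12 of the 36 members overlap exons of another protein-coding gene, 5 of them among the measured members. The library kit does not keep strand, so reads of genes that overlap on opposite strands cannot be told apart there. For nas-4 and nas-39 the overlap is on the same strand, where strand would not separate the reads either.

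Setting THz against control worms asks whether any astacin gene differed after the exposure. None of the 10 measured members passed the test (limma on log2(FPKM + 1), two-sided, Benjamini-Hochberg adjustment over 12174 genes), with adjusted p-values from 0.827 to 0.988. Over all genes 0.0% were called. At an unadjusted p under 0.05 there were 0 of 10 members, where 5.86% of all genes tested fell below that value. The mean was lower after THz for 6 members and higher for 4, where 49.5% of all genes tested were lower, and the median log2 difference was -0.06, against 0.00 for all genes tested. With the libraries rescaled to the same median, 5 of 10 were lower, against 36.5% of all genes, and after quantile normalization 4 of 10, against 43.6% of all genes. The median over all genes was then 0.08 and 0.03, against 0.00 as deposited, so these scalings also shift all genes together. Except for nas-9 and nas-37, the 95% confidence intervals of the measured members reached past 0.5 on the log2 scale in at least 1 direction, so differences of that size lay within those intervals.

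**Figure D3:**
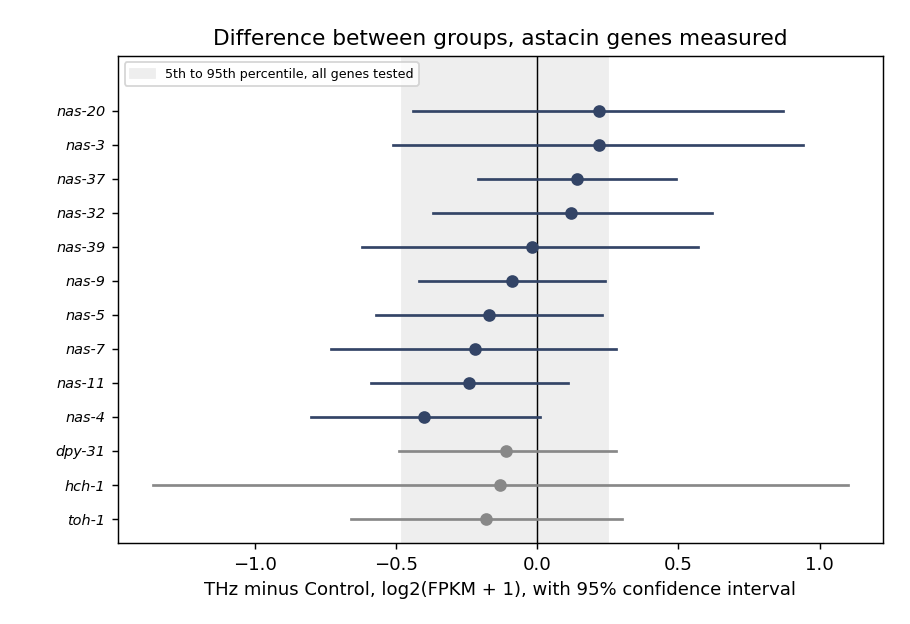
Points give the difference THz minus Control in log2(FPKM + 1) and lines the 95% confidence interval from limma (n = 3 libraries a group), for the 10 measured members and the 3 astacin genes with other names, over a band from the 5th to the 95th percentile of all genes tested, -0.48 to 0.25. Every interval crosses 0, the nearest to doing otherwise being nas-4, from -0.80 to 0.01.

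For 3 of the 10 measured members all THz libraries lay below all control libraries, and for 0 all lay above. Over all genes tested these shares were 7.33% and 6.44%. The 3 genes were nas-4, nas-5 and nas-11, and after rescaling or quantile normalization nas-4 alone remained of them. While nas-5 and nas-11 reached 1 FPKM in all 6 libraries, nas-4 did so in the 3 control libraries only. It thus passed the filter through the group where it was higher, and its place in this count is not independent of the filter. Under these scalings the share of all genes below was also smaller, at 4.4% and 5.05%, and the share above larger, at 16.6% and 8.95%.

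In the first subgroup (nas-1 to nas-5), whose proteins have 270 to 365 residues by the annotated coding sequence, 3 of 5 members were measured. The gene nas-4 (chromosome III, 6411816 to 6414993) measured 1.30, 1.33 and 1.24 FPKM in the control libraries and 0.715, 0.908 and 0.617 FPKM in the THz libraries. The control values were close together and all above the THz values. Only the control values reached 1 FPKM, so nas-4 passed the filter through the group where it was higher. In reads these were 33, 35 and 34 against 17, 22 and 16. The log2 difference was -0.40 ± 0.17 (SE, n = 3 a group), with an unadjusted p of 0.0543 and an adjusted p of 0.827 with limma. Over 16 alternatives the difference ran from -0.79 with voom on recovered reads to -0.13 with a pseudocount of 5. The adjusted p ran from 0.0374 to 0.999, the lowest with library weights, under which 25.4% of all genes were called. Its exons overlap those of C05D11.5 on the same strand, which measured 1.82 to 3.37 FPKM, with no difference past the threshold (adjusted p = 0.884).

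The gene nas-5 (chromosome I, 9886200 to 9888154) measured 1.55, 1.84 and 1.55 FPKM in control and 1.21, 1.47 and 1.38 FPKM in THz libraries, a gap between the groups smaller than the spread within either. Its log2 difference was -0.17 ± 0.17 (SE; adjusted p = 0.857, limma). The gene nas-3 (chromosome V, 9478163 to 9479601) measured 0.528, 1.91 and 0.284 FPKM in control and 0.983, 1.1 and 1.16 FPKM in THz libraries. Control 2 was the highest and Control 3 the lowest of the 6 libraries, a 6.71-fold span from 7 to 45 reads, and all 3 THz libraries lay between them. The unmeasured nas-1 held 0 to 12 reads in a library.

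In the second subgroup (nas-6 to nas-15), whose proteins typically carry small cysteine-rich ShK modules, 3 of 10 members were measured. The gene nas-11 (chromosome X, 6713577 to 6716381) had the highest mean of all members, with 12.9, 17.7 and 13 FPKM in control and 11.8, 12.3 and 12.0 FPKM in THz libraries. The THz libraries were within 1.04-fold of each other, while Control 2 stood 1.37-fold above the lowest control. The log2 difference was -0.24 ± 0.15 (SE; adjusted p = 0.828, limma). Without Control 2 it was -0.10. The overlapping gene smf-2 on the opposite strand was at or near 0 in every library, at most 0.0555 FPKM.

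The gene nas-9 (chromosome V, 4836027 to 4840010) was the steadiest of the abundant members, with 10.6, 12.0 and 9.70 FPKM in control and 10.8, 9.92 and 9.36 FPKM in THz libraries. These ranges overlapped, and the log2 difference of -0.09 had a 95% confidence interval from -0.42 to 0.24. The gene nas-7 (chromosome II, 7400544 to 7402724), with a role in the pharynx, measured 1.79, 2.5 and 3.04 FPKM against 1.91, 2.37 and 1.54 FPKM. Its groups overlapped too, with a log2 difference of -0.22 ± 0.22 (SE; adjusted p = 0.850, limma), and its exons overlap C07D10.1 on the opposite strand (0.776 to 2.34 FPKM). Its partner in the pharynx, nas-6 (chromosome IV, 17486871 to 17490779), which is needed for a normal grinder, did not pass the filter. It held 18, 5 and 18 reads in control and 5, 11 and 7 reads in THz libraries, or 0.235 to 0.876 FPKM. Control 2 was the lowest and Control 1 the highest library for nas-6.

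The pharyngeal marker list, beside which both genes stand, had 6 measured genes, 6 of them with a lower mean after THz (49.5% of all genes) and 2 lower at an unadjusted p under 0.05 (4.01% of all genes), but 0 past the threshold. Its summed level was 126 to 192 FPKM in control and 96.9 to 129 FPKM in THz libraries, so Control 2 lay within the THz range. No gene of that list was at 0 throughout. Among the other marker lists, all 5 body wall muscle genes had a lower mean after THz. Of them, 3 had an unadjusted p under 0.05 (4.01% of all genes) and 3 lay below without overlap (7.33% of all genes). Their summed level was 1310 to 1850 FPKM in control and 1140 to 1340 FPKM in THz libraries. All 6 germline genes had a higher mean. Of these, 4 lay above without overlap (6.44% of all genes) and 1 had an unadjusted p under 0.05 (1.86% of all genes). The germline sum was 1920 to 1970 FPKM in control and 2130 to 2210 FPKM in THz libraries. One-sided counts were also seen in lists with 0 genes at an unadjusted p under 0.05. All 6 measured sperm genes had a higher mean, and 6 of 7 intestinal genes a lower one. The sperm sum was 16.5 to 51.3 FPKM in control and 29.4 to 44.1 FPKM in THz libraries. No gene of these lists passed the adjusted threshold. The part of these lists in the astacin values was not tested.

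The third subgroup (nas-16 to nas-30), whose proteins mostly carry EGF-like and CUB modules, was the largest with 14 members, of which 1 was measured. That gene, nas-20 (chromosome V, 11470868 to 11472349), measured 3.58, 8.27 and 4.14 FPKM in control and 5.39, 6.88 and 5.78 FPKM in THz libraries. Control 2 was the highest library, with 220 reads against 92 and 115 in the other controls, and the THz libraries lay between it and them. The log2 difference was 0.22 ± 0.28 (SE; adjusted p = 0.884, limma). It was 0.02 without Control 1, 0.10 without Control 3 and 0.53 without Control 2. Its unmeasured neighbour nas-21 also had its highest count in Control 2, with 22 reads against 5 and 3 in the other controls and 5, 9 and 5 in THz libraries.

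Of the other members of the third subgroup, nas-28 came closest to the filter, with 0.593 to 1.14 FPKM. The remaining ones had means of at most 0.325 FPKM. The 5 members on which fewest reads fell in this subgroup, apart from those at 0, were nas-23, nas-27, nas-17, nas-19 and nas-22, with 8, 9, 11, 14 and 17 reads summed over the 6 libraries. Values of single libraries rest there on at most 4 reads.

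The subgroup of nas-31 and nas-32 held long proteins of 611 and 653 residues. The gene nas-32 (chromosome V, 894930 to 899187) measured 1.42, 0.683 and 1.13 FPKM in control and 0.935, 1.38 and 1.43 FPKM in THz libraries, with Control 2 lowest and the groups overlapping. Its log2 difference of 0.12 ± 0.21 (SE; adjusted p = 0.908, limma) was smaller than its error. The gene nas-31 reached 1 FPKM in 2 libraries, from 0.413 FPKM in THz 1 to 1.48 FPKM in Control 3.

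The subgroup of nas-33 to nas-38, whose proteins add a thrombospondin type 1 module, holds the enzymes of cuticle shedding. The gene nas-37 (chromosome X, 9944844 to 9949060), without which larvae stay trapped in the old cuticle, measured 7.35, 8.58 and 7.92 FPKM in control and 7.74, 9.61 and 9.31 FPKM in THz libraries. THz 2 and THz 3 exceeded all controls, and THz 1 lay among them. The log2 difference was 0.14 ± 0.15 (SE; adjusted p = 0.865, limma). Its exons overlap C17G1.5 on the opposite strand, which measured 2.19 to 3.88 FPKM. The second moulting enzyme, nas-36 (chromosome I, 7527224 to 7531715), was unmeasured, with 40, 46 and 31 reads in control and 27, 22 and 28 reads in THz libraries. In FPKM its lowest control, 0.623 in Control 3, lay just below its highest THz value, 0.625 in THz 1. The gene nas-38 (chromosome X, 558141 to 563657), whose altered activity changes sleep during the moult, held 6 to 10 reads in each library, or 0.136 to 0.213 FPKM. The gene nas-33 held 16 to 32 reads.

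The last member, nas-39 (chromosome X, 16456927 to 16471325), encodes the longest protein, of 928 residues, and is the relative of tolloid and BMP-1, which in flies and vertebrates release growth factors and process procollagen. It measured 4.37, 1.97 and 3.97 FPKM in control and 3.00, 3.14 and 3.56 FPKM in THz libraries. Control 2 was the lowest library, at 131 reads against 281 and 276, and all THz libraries lay between it and the other controls. The log2 difference was -0.02 ± 0.26 (SE; adjusted p = 0.988, limma). On the same strand its exons overlap F38E9.1, which measured 4.82 to 7.80 FPKM.

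Among members below the filter, groups without overlap were seen for nas-8 and nas-29, both lower after THz, and nas-19, higher after THz, all 3 picked out after their values were seen. Of 33 members with any value, 5 thus lay below and 1 above without overlap, where 6.09% and 5.02% of all genes with any value did so. The gene nas-8 held 39, 24 and 46 reads in control and 19, 19 and 23 reads in THz libraries, so Control 2 exceeded THz 3 by 1 read. Its exons overlap C34D4.10 on the opposite strand, a more abundant gene. That gene measured 6.83, 8.04 and 6.5 FPKM in control and 4.37, 4.55 and 6.26 FPKM in THz libraries (adjusted p = 0.827, limma). What part its reads have in the nas-8 values was not tested. The gene nas-29 held 6, 12 and 17 reads against 1, 5 and 5, and nas-19 held 1, 0 and 3 against 3, 4 and 3. With voom on the recovered reads, which admitted 20 members, 1 had an unadjusted p under 0.05, as had 5.67% of all genes, and that was nas-4 (adjusted p = 0.836, limma). With no filter on low values nas-4 was again the 1 such member, here of 33, where 5.22% of all genes had such a p.

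Control 2 stood at one end of the range for most of the measured members. It was the highest of the 6 libraries for 6 of the 10 and the lowest for 2, and over all genes tested it was at one end for 56.1%. It was highest for nas-11, nas-9, nas-20, nas-5, nas-4 and nas-3 and lowest for nas-39 and nas-32. The range over libraries of log2(FPKM + 1) was narrower among THz than among control libraries for 7 of 10 members, against 79.1% of all genes. The median range was 0.48 among control and 0.22 among THz libraries for the members, and 0.40 and 0.21 for all genes. For nas-3, nas-20 and nas-39, all THz values lay within the range of the controls, as they did for 41.7% of all genes.

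**Figure D4:**
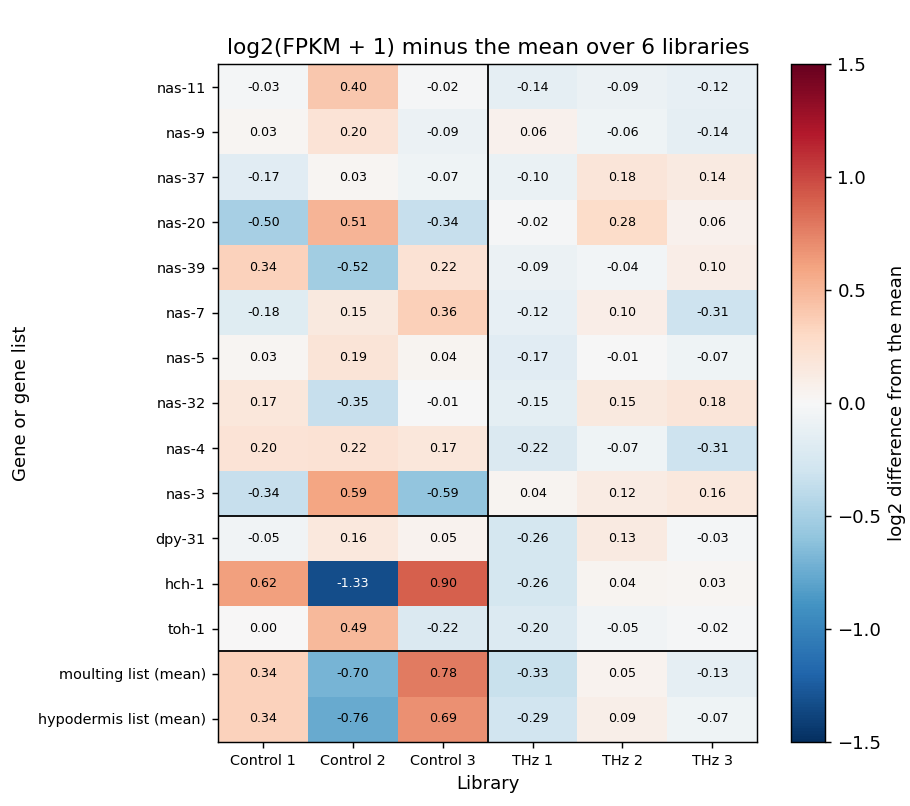
Each cell gives log2(FPKM + 1) minus the gene's mean over the 6 libraries, red above and blue below that mean, for the 10 measured members, the 3 astacin genes with other names, and the mean over the moulting and hypodermal marker lists. Control 2 is at 0.59 for nas-3 and 0.51 for nas-20 but at -0.52 for nas-39 and -1.33 for hch-1. In these rows the THz values stay nearer 0 than Control 2, but not in all rows. For nas-37, Control 2 is at 0.03 and THz 2 at 0.18.

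Without Control 2, there were 2 of 10 members at an unadjusted p under 0.05, where 17.6% of all genes fell below that value. They were nas-3 (log2 difference 0.57, adjusted p = 0.215, limma) and nas-20 (log2 difference 0.53, adjusted p = 0.198), both with a higher mean in the THz libraries, and neither passed the threshold. The genes tested stayed those that passed the filter with all 6 libraries. For nas-3 only THz 2 and THz 3 of the libraries left reached 1 FPKM, and the controls left held 12 and 7 reads. Groups without overlap were then seen for 6 of 10, with nas-3 and nas-20 above (16.8% of all genes) and nas-4, nas-5, nas-11 and nas-39 below (19.1% of all genes). With library weights estimated by limma, nas-4 (adjusted p = 0.0374) and nas-20 (adjusted p = 0.0269, log2 difference 0.53) passed, 2 of 10 members, where 25.4% of all genes passed. At an unadjusted p under 0.05 there were 4 of 10 members with these weights, where 41.9% of all genes had such a p. Over its 17 alternatives the adjusted p of nas-20 ran from 0.0269 to 0.999.

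The moulting list, 22 genes measured of 23, differed widely between the control libraries. Its mean score of centred log2(FPKM + 1) was 0.34, -0.70 and 0.78 in the control libraries and -0.33, 0.05 and -0.13 in the THz libraries, and its summed level ran from 232 to 543 FPKM in control and from 275 to 338 FPKM in THz libraries. No gene of that list was at 0 throughout. The hypodermal markers scored 0.34, -0.76 and 0.69 in control and -0.29, 0.09 and -0.07 in THz libraries. The moulting enzyme nas-37 had values of 0.03 in Control 2 and -0.07 in Control 3 on the same scale, and nas-3 and nas-20 were highest in Control 2, where the list was lowest. Like the list, nas-39 was low in Control 2 with 0.34, -0.52 and 0.22 in the control libraries, as were nas-32 at -0.35 in Control 2 and hch-1 with 0.62, -1.33 and 0.90. Whether the list's spread has a part in the astacin values was not tested.

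The astacin genes with other names were at least as abundant as most nas genes. The gene hch-1 (chromosome X, 14696412 to 14699977) measured 21.8, 4.90 and 26.8 FPKM in control and 11.4, 14.2 and 14.1 FPKM in THz libraries. Control 2 was the lowest and Control 3 the highest library, a 5.46-fold span, and the THz libraries lay between them. The log2 difference was -0.13 ± 0.53 (SE; adjusted p = 0.966, limma). It was -0.82 with an adjusted p of 0.0285 without Control 2, where 1.92% of all genes were called, 0.15 without Control 1 and 0.29 without Control 3. Over its 17 alternatives the adjusted p ran from 0.0285 to 0.999.

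The gene dpy-31 (chromosome III, 7202661 to 7207664) was steady, at 7.05, 8.27 and 7.62 FPKM in control and 5.94, 8.09 and 7.17 FPKM in THz libraries (log2 difference -0.11 ± 0.16, SE; adjusted p = 0.898, limma). The control libraries differed by 1.17-fold for dpy-31. For the collagen gene sqt-3, whose product DPY-31 cuts, they differed far more, with 319, 44.4 and 446 FPKM in control and 106, 151 and 132 FPKM in THz libraries. The gene toh-1 (chromosome III, 3804772 to 3809030), named for its likeness to tolloid, measured 7.59, 11.1 and 6.41 FPKM against 6.50, 7.34 and 7.47 FPKM, with Control 2 highest (log2 difference -0.18 ± 0.21, SE; adjusted p = 0.876, limma). Without Control 2 its difference was 0.02.

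Genes of related function were described from lists chosen with earlier results of these data known, and none of their genes passed the test over all genes. In the moulting list 19 genes had a lower and 3 a higher mean after THz, with a median log2 difference of -0.25 against 0.00 for all genes and 0 genes at an unadjusted p under 0.05. The smallest p belonged to the kinase gene nekl-2, with 7.14 ± 1.11 FPKM in control and 5.40 ± 0.0638 FPKM in THz libraries (SD, n = 3 each; adjusted p = 0.827, limma). The amyloid precursor-like gene apl-1 and the lipoprotein receptor gene lrp-1 followed, with log2 differences of -0.33 and -0.28. Among 11 measured genes of collagen maturation, 8 were lower and 3 higher, and phy-2, a prolyl 4-hydroxylase, was the 1 gene at an unadjusted p under 0.05 (0.00101), with a log2 difference of -0.73 and an adjusted p of 0.612. The next were bli-4, a proprotein convertase, at 101 ± 2.88 and 107 ± 1.42 FPKM, and the oxidase gene bli-3, at 3.79 ± 0.303 and 3.21 ± 0.249 FPKM.

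Genes for protease inhibitors, which hold extracellular proteases in check, were lower for 7 and higher for 2 of 9 measured, with a median log2 difference of -0.11. The serpin genes srp-1 and srp-6 measured 14.6 ± 3.01 against 11 ± 2.05 FPKM and 7.42 ± 0.278 against 5.97 ± 0.755 FPKM, and cri-2, a relative of the tissue inhibitors of metalloproteases, 19.9 ± 4.45 against 15.5 ± 2.85 FPKM (SD, n = 3). Of 16 measured genes for other metalloproteases, 10 were lower and 6 higher, with a median of -0.09. The neprilysin genes nep-17 and nep-2 had log2 differences of -0.16 and -0.27, and the ADAM protease gene sup-17 had one of 0.17. All 6 of these genes had an adjusted p of 0.827 with limma. Neither list had a gene at an unadjusted p under 0.05, a value below which 4.01% of all genes tested fell with a lower and 1.86% with a higher mean after THz. Without Control 2, 22 genes of these lists and of the astacins with other names together had such a p, against 1 with all 6 libraries, and over all genes 17.6% had one. The measured genes behind this count were 22 for moulting, 11 for collagen maturation, 9 protease inhibitors, 16 other metalloproteases and 3 other astacins. Both mlt-11 and adt-2 stand in 2 of these lists.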

How the data were processed

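Per the labels' protocols, RNA of whole worms was extracted with TRIzol and its polyadenylated part made into libraries with the TruSeq RNA v2 kit. The tools listed in the submitters' processing notes are STAR, DESeq 1.10.1 and HTSeq 0.5.4, and the build is WBcel235, without their roles. The authors deposited 1 FPKM value per gene and library. FPKM multiplied by gene length came out as whole multiples of 1 read, within 0.05 reads, for 88.8% of values above 0, which gave the depth of each library and the reads behind each value.

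A gene was tested if 3 or more libraries reached 1 FPKM (12174 of 46950 rows). Differences were tested with limma 3.58.1 in R 4.3.3 on log2(FPKM + 1) with a mean-variance trend, 3 THz against 3 control libraries, two-sided. P-values were adjusted by Benjamini-Hochberg over all tested genes, with 0.05 as the threshold. The added 1 shrinks differences of low genes. An exact permutation test of 3 against 3 cannot go below p = 0.1 and was not used. The scripts were tested on simulated data. The gene family and the gene lists were chosen with earlier results of these data known, and the members were then all rows with a numbered nas name. Named are measured members with the highest means, the smallest p, no overlap or the largest range, members with known roles, the other astacins, and the 3 genes with the smallest p in each list. Figures were drawn with matplotlib 3.10.9, and overlaps between genes come from the Ensembl annotation of WBcel235. Alternatives were other pseudocounts, filters, scalings and limma settings, library weights, voom on recovered reads, the replicate number as a block and leaving out each library.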

Additional observations from a re-analysis of the deposited data

How the results depend on the processing

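With FPKM as deposited, 0 of 10 members had an unadjusted p under 0.05, where 5.86% of all genes did. The count was 1 of 33 members with no filter (5.22% of all genes) and 1 of 20 with voom on recovered reads (5.67%). It was 1 without limma's trend (6.28% of all genes) and 4 with library weights (41.9%). On leaving out each library it was 0 to 2, the most without Control 2 (17.6% of all genes). The count of members past the adjusted threshold was 0 except with library weights, where it was 2 and 25.4% of all genes passed. Members with no overlap between groups numbered 3 (13.8% of all genes had none), against 6 with no filter (11.1%), 1 with a filter of 5 FPKM (of 4 members; 14.4%), 1 with libraries rescaled to the same median (21%), 1 after quantile normalization (14%) and 3 to 6 on leaving out each library (18.6% to 35.9%). Their median log2 difference was -0.06, against 0.02 after rescaling and with a filter of 5 FPKM, 0.06 after quantile normalization and -0.27 with voom, which admitted more members. Over all genes, 0 were called, 3092 with library weights and 0 to 234 on leaving out each library. The related genes came from lists of 3, 22, 11, 9 and 16 measured genes, with mlt-11 and adt-2 in 2 lists each. Of them, 1 had an unadjusted p under 0.05 (5.86% of all genes). There were 4 after rescaling (11.5% of all genes), 3 after quantile normalization (6.02%) and 4 without the trend (6.28%). Library weights gave 28 (41.9% of all genes), the replicate block 2 (4.37%) and voom 2 (5.67%). Leaving out each library gave 1 to 22, the most without Control 2 (17.6% of all genes). The sign of the log2 difference turned for nas-39 after rescaling (0.05) and quantile normalization (0.11), for dpy-31 after quantile normalization (0.03), and for nas-32 with library weights (-0.04). For nas-9 the difference went to 0.00 after quantile normalization. Rescaling moved the median of all genes from 0.00 to 0.08, a common shift about as large as the turn of nas-39 there, and quantile normalization moved it to 0.03. On leaving out each library it ran from -0.29 to 0.14 for nas-39, from -0.02 to 0.24 for nas-32, from -0.02 to 0.57 for nas-3, from 0.02 to 0.53 for nas-20, from -0.31 to -0.10 for nas-11, from -0.37 to -0.10 for nas-7, from -0.16 to -0.01 for nas-9, from 0.09 to 0.23 for nas-37, from -0.20 to 0.00 for dpy-31, from -0.82 to 0.29 for hch-1 and from -0.33 to 0.02 for toh-1. With library weights hch-1 also passed (-0.60, adjusted p = 0.0482, limma), as did 25.4% of all genes. The cause of the other changes was not tested.

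The labels do not state whether same-numbered libraries were paired. The deviations of same-numbered libraries from their group means had correlations of -0.01, -0.14 and 0.03 across genes, and no library correlated best with its own number. With 3 libraries a group these deviations depend on each other, so the correlations cannot exclude pairing. With the replicate number as a block, 0 of 10 members passed the adjusted threshold, 0 had an unadjusted p under 0.05, and 532 of all genes did, against 714 without the block. Most members below the filter rest on under 50 reads a library, which limits what can be detected for them.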
